A study of Mus musculus with 6 samples.

Results

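The Toll-like receptors described here are the 10 genes Tlr1, Tlr2, Tlr3, Tlr4, Tlr5, Tlr6, Tlr7, Tlr8, Tlr9 and Tlr13, taken by name among the 24848 gene symbols of an expression table. Of these, 5 encode receptors of the cell surface (Tlr1, Tlr2, Tlr4, Tlr5 and Tlr6) and 5 encode receptors of endosomes (Tlr3, Tlr7, Tlr8, Tlr9 and Tlr13). The table came from RAW 264.7, a mouse macrophage-like cell line derived from a virus-induced tumour. Cells with a knockout of APOBEC1 (KO, 3 libraries) were set against cells labelled WT (3 libraries), each library from its own plate. Both groups grew in the same high-glucose DMEM with low-endotoxin serum, and no ligand or other treatment is labelled. APOBEC1 is a cytidine deaminase that edits C to U in messenger RNA, and the study used these libraries to compare RNA editing between sequencing methods; their expression values are described here. How the knockout was made, and from how many clones, is not stated in the labels, so what the knockout does and what else sets these cells apart cannot be told apart.

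Toll-like receptors recognise conserved parts of microbes through a leucine-rich ectodomain and signal through a cytoplasmic TIR domain. Surface receptors bind lipopeptides, lipopolysaccharide and flagellin, whereas endosomal receptors bind nucleic acids and depend on the chaperone UNC93B1 to leave the endoplasmic reticulum and on proteases to be trimmed. Most of them use the adaptor MYD88, TLR3 uses TRIF (Ticam1), and TLR4 uses both. In macrophages their engagement activates NF-kB and interferon regulatory factors and induces cytokine genes.

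Both receptors whose transcripts passed the test, Tlr8 and Tlr13, lie on the X chromosome. The 250 bases before their RefSeq starts (GRCm38.p6) are shown because these transcripts moved in opposite directions. Tlr8 is given at chrX:167264330-167264579 on the minus strand and Tlr13 at chrX:106143025-106143274 on the plus strand, each 5′ to 3′ along its gene. Capitals mark the match to an interferon regulatory factor element (GAAANNGAA, read on either strand), which in Tlr8 lies on the opposite strand at positions -67 to -59 from the start.
Tlr8: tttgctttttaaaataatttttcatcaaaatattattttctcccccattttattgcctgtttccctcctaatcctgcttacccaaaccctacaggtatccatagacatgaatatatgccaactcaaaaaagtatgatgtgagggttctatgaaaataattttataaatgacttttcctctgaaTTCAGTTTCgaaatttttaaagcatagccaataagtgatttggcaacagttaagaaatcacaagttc
Tlr13: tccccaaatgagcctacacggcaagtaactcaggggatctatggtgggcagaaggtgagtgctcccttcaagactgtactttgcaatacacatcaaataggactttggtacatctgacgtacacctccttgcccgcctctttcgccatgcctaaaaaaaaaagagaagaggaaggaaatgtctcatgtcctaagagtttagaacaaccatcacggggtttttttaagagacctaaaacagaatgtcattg
The Tlr8 window was 31.2% G or C with 1 CpG, and the Tlr13 window was 44.4% G or C with 5 CpG. Of the 10 receptors, 8 had a promoter in RefSeq, all but Tlr4 and Tlr7, and Tlr1 and Tlr6 each had more than 1. The interferon regulatory factor element was found in 2 of those 8, Tlr8 and Tlr6, and in 7.13% of all 32851 promoters. A receptor counted if any of its windows matched, whereas the shares are per promoter. Of the Tlr6 windows only the one at chr5:64959167-64959416 matched, with a pair of overlapping matches. A PU.1 motif (GAGGAAGT) was found in Tlr1, only in its window at chr5:64933559-64933808, and in 2.44% of all promoters. An AP-1 motif (TGANTCA) was found in Tlr9 and in 6.75%, and the kB motif in Tlr2 and Tlr3 and in 5.00%. None of these 4 motifs was found in the Tlr13 window or the Tlr5 window on either strand. A match is a run of letters and was not tested as a binding site.

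A second sequence bears on what the counts of Tlr1 and Tlr6 can resolve. These neighbours on chromosome 5 lie 18467 bases apart and encode the alternative partners of TLR2. Their transcripts share 454 stretches of 50 bases, which is 13.6% of those of Tlr1 and 12.3% of those of Tlr6. The longest identical run, inside both coding parts, is 229 bases, longer than the 125-nucleotide read, and is given from Tlr6 at chr5:64953828-64954056 (mm10, minus strand).
Tlr6 and Tlr1: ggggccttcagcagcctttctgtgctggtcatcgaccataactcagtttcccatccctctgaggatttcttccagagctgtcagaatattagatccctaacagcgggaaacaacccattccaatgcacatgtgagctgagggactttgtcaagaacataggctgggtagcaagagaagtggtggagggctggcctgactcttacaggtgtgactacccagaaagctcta
A read pair that falls wholly in this run cannot be given to either gene, so their levels are uncertain to that extent. No 50-base stretch of Tlr2, Tlr5, Tlr7, Tlr8, Tlr9 or Tlr13 was shared with any annotated gene, and the longest identical run between Tlr8 and Tlr7 was 13 bases. Tlr3 shared 5.30% of its stretches with Gm45542, whose exons overlap its own. Counting every other annotated gene, the shared part was 15.4% for Tlr1, 12.3% for Tlr6 and 0.22% for Tlr4.

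Libraries held 59768682 to 70411383 assigned reads in KO and 50493447 to 67392191 in WT, so 1 read was worth 0.0142 to 0.0198 CPM, the unit of the table (reads of a gene per 1000000 assigned reads). Differences were tested with limma on log2(CPM + 0.5) over 10614 genes, those reaching 1 CPM in at least 3 of the 6 libraries, and a gene was called at a Benjamini-Hochberg adjusted p under 0.05. Of these genes 30.4% were called, 13.5% higher and 16.9% lower in KO, and the median log2 fold change was -0.02. Chromosome 2, which carries no tested receptor, held 499 of the 1436 higher calls and 44 of the 1794 lower calls. Of its 856 tested genes 63.4% were called. The background shares given with the receptors include this chromosome, so they overstate how often genes elsewhere were called, above all as higher. WT replicate 1 stood apart from the other WT libraries by base composition, and its values are given beside the results they touch. Apobec1 itself stood at 339, 340.1 and 361 CPM in KO, against 372.5, 431 and 396 CPM in WT (log2 fold change -0.20, limma adjusted p = 0.0663); the median of all tested genes on its chromosome, 6, was -0.16. It was called lower in KO under 6 of 23 alternatives, which were upper-quartile scaling, rescaling without Rn45s, quantile normalization, DESeq2, the trend on length and G or C removed, and leaving out WT replicate 1, with values of -0.27 to -0.15 over all 23. A transcript level does not show whether the protein is made, so these values do not check the labels. All 9 macrophage markers examined were present, with a summed level of 3459 to 3812 CPM in KO and 3138 to 3237 CPM in WT. The higher sum in KO rested on Lyz2, at 1238 ± 121 CPM in KO and 708 ± 49.0 CPM in WT. Of the 9 markers 3 were higher in KO (Lyz2, Spi1 and Mertk) and 2 lower (Adgre1 and Fcgr1). Spi1 (0.39) and Mertk (0.33) lie on chromosome 2, near its median log2 fold change of 0.34. The part of these markers in the receptor results was not tested. No marker of B cells, T cells, fibroblasts or epithelium reached 1 CPM.

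**Figure D1:**
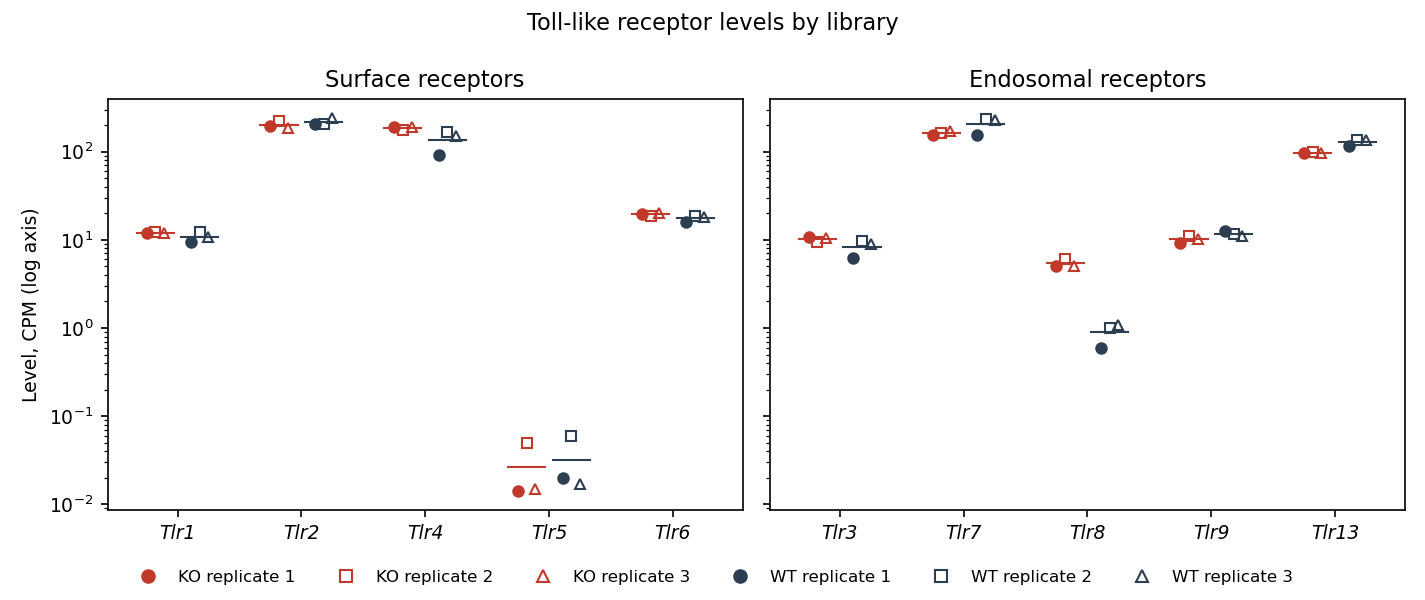
CPM of each Toll-like receptor by library on a log axis, surface receptors apart from endosomal ones, with KO points left of WT points and bars at the group means (3 libraries each). Tlr8 is the receptor with the widest gap, 5.07 to 6.01 CPM in KO against 0.594 to 1.096 CPM in WT, and Tlr5 sits at 1 to 4 reads in every library.

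Among the surface receptors no transcript passed the test. Of the 5 surface genes 4 had enough reads to be tested, 0 were called against 30.4% of all tested genes, and 1 (Tlr4) had an unadjusted limma p under 0.05. Values of the groups did not overlap for 2 of the 4, Tlr4 and Tlr6, against 46.4% of all tested genes. The median log2 fold change of the 4 was 0.15. In bulk RNA such as this, fewer cells carrying a transcript and less of it per cell cannot be told apart.

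Tlr4, the lipopolysaccharide receptor (ENSMUSG00000039005.13, chr4:66827584-66930284, plus strand), stood at 188, 177 and 189 CPM in KO, against 92.4, 165 and 150.25 CPM in WT. All KO libraries lay above all WT libraries, and WT replicate 1 lay far below the other WT libraries. The group means were 185 ± 7.15 CPM in KO and 136 ± 38.5 CPM in WT (SD, n = 3 each), a 1.36-fold ratio. The log2 fold change was 0.48 ± 0.19 (SE), with a 95% interval of 0.04 to 0.93 and a limma adjusted p of 0.0972. Without WT replicate 1 the difference was smaller, 0.23, and was called (adjusted p = 0.0297), and without WT replicate 2 it was 0.65 (adjusted p = 0.0161). DESeq2 on whole reads recovered from the CPM also called Tlr4, at 0.47 (adjusted p = 0.0187). The LPS co-receptors Cd14 and Ly96, which encodes MD-2, were not called (log2 fold changes -0.04 and 0.07).

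WT replicate 1, where Tlr4 was lowest, also stood apart by base composition. Set against the mean of the other WT libraries, WT replicate 1 differed by a median of -0.43 (log2) for 1360 genes under 42% G or C in their longest transcript and by 0.16 for 2670 genes of 54% or more. The Tlr4 transcript is 39.4% G or C, and the difference of the gene in that library was -0.77. The same difference was -0.57 for Tlr7 (41.0% G or C), -0.56 for Tlr3 (40.0%), -0.50 for Tlr8 (40.1%) and 0.14 for Tlr9 (56.2%). The part of base composition in any of these values was not tested gene by gene; with a trend on length and G or C removed across all genes, the surface calls went to 3 (Tlr1, Tlr4 and Tlr6) and the endosomal calls to 4 (Tlr3 and Tlr7 added), with each direction kept.

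**Figure D2:**
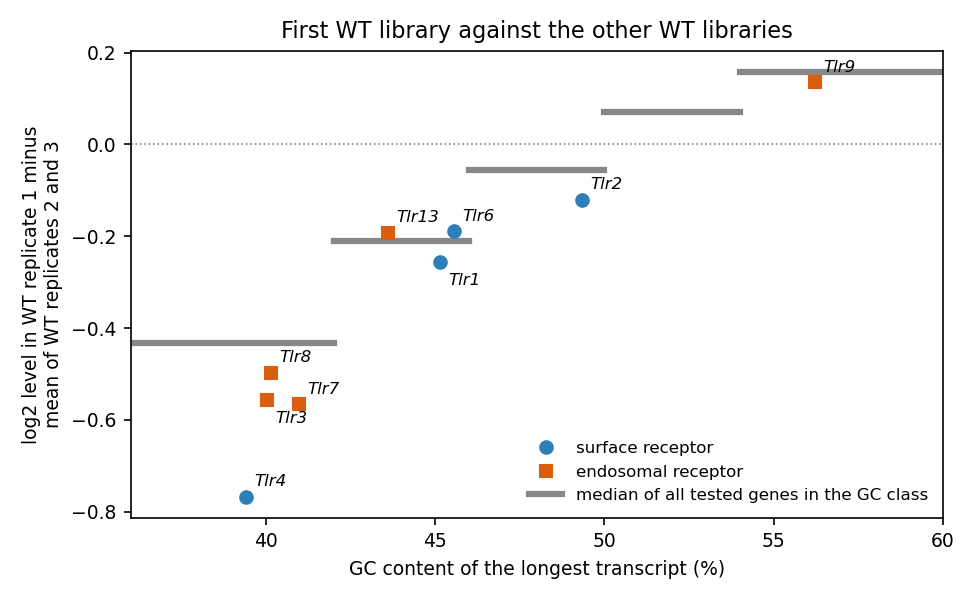
Log2 difference between WT replicate 1 and the mean of the other WT libraries (vertical axis) for each tested receptor, against the percent of G or C in its longest transcript (horizontal axis); grey bars are medians of all tested genes by class. Tlr4, Tlr7, Tlr3 and Tlr8, at 39.4% to 41.0% G or C, were lowest at -0.77 to -0.50, and Tlr9, at 56.2%, was the one receptor above 0.

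Tlr2, the lipopeptide receptor that pairs with TLR1 or TLR6 (ENSMUSG00000027995.10, chr3:83836272-83841767, minus strand), was the most abundant member in both groups per kilobase of exon. It stood at 196, 222 and 184 CPM in KO, against 204, 206 and 239 CPM in WT, and the groups overlapped. The log2 fold change was -0.11 ± 0.09 (SE), with a 95% interval of -0.32 to 0.10 and a limma adjusted p of 0.411. Tlr2 was not called under any of the 23 alternatives tried, at -0.21 to -0.04.

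Tlr1 (ENSMUSG00000044827.10, chr5:64924679-64933563, minus strand), whose product joins TLR2 to bind triacylated lipopeptides, stood at 12.1, 12.1 and 11.8 CPM in KO, against 9.51, 12.1 and 10.8 CPM in WT. The groups overlapped, and the log2 fold change was 0.15 ± 0.10 (limma adjusted p = 0.296). Tlr6 (ENSMUSG00000051498.6, chr5:64952031-64960097, minus strand), whose product joins TLR2 to bind diacylated lipopeptides, stood at 19.6, 18.6 and 20.1 CPM in KO, against 16.0, 18.5 and 18.0 CPM in WT. The Tlr6 groups did not overlap but nearly met, and its log2 fold change was 0.15 ± 0.08 (limma adjusted p = 0.219). Per kilobase of exon, Tlr6 exceeded Tlr1 by 1.45 ± 0.0735 times in KO and 1.46 ± 0.0739 times in WT, so the balance of these partners did not differ beyond its spread. Single libraries moved these small differences: without WT replicate 1 they were 0.06 for Tlr1 and 0.08 for Tlr6, and without WT replicate 2 they were 0.23 for Tlr1 and 0.19 for Tlr6, none of them called.

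Tlr5, the flagellin receptor (ENSMUSG00000079164.8, chr1:182954788-182976044, plus strand), had 1, 3 and 1 reads in KO libraries and 1, 4 and 1 reads in WT libraries. It fell below the level needed for a test, and no difference was detectable at this depth. Tlr11 and Tlr12, mouse receptors for microbial profilin, had 0 reads in any library and 1 read in KO replicate 3.

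Among the endosomal receptors Tlr8 rose 6.03-fold in KO and Tlr13 fell by 24.2%, while Tlr3, Tlr7 and Tlr9 did not pass the test. All 5 were tested and 2 were called, against 30.4% of all tested genes; 1 was higher (background 13.5%) and 1 lower (background 16.9%). The single member both called and at least 1 higher on the log2 scale was Tlr8, against 1.13% of tested genes. Groups did not overlap for 3 of the 5, Tlr8, Tlr9 and Tlr13, against 46.4%. The median log2 fold change of the 5 was -0.19.

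Tlr8 (ENSMUSG00000040522.5, chrX:167242696-167264329, minus strand) encodes an endosomal receptor of RNA breakdown products, described in mice as restraining TLR7. It stood at 5.07, 6.01 and 5.10 CPM in KO, against 0.594, 0.994 and 1.096 CPM in WT, from 357, 359 and 340 reads in KO and 30, 67 and 64 reads in WT. Every KO library was several times above every WT library. The means were 5.39 ± 0.532 CPM in KO and 0.895 ± 0.265 CPM in WT (SD, n = 3 each). On the log2(CPM + 0.5) scale, which understates changes of low genes, the fold change was 2.09 ± 0.16 (SE), with a 95% interval of 1.73 to 2.46 and a limma adjusted p of 5.73e-05. Of the 10614 tested genes, 22 had a larger log2 fold change. It was called under all 23 alternatives, at 1.76 to 2.61. The gene passed the filter on low values through its 3 KO libraries, with 1 WT library also at 1 CPM or more.

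Tlr13, a receptor of bacterial 23S ribosomal RNA that humans lack (ENSMUSG00000033777.4, chrX:106143204-106160493, plus strand), stood at 96.4, 99.7 and 96.1 CPM in KO, against 117, 134 and 134 CPM in WT. All KO libraries lay below all WT libraries. The means were 97.4 ± 2.03 CPM in KO and 128 ± 9.70 CPM in WT (SD, n = 3 each). The log2 fold change was -0.39 ± 0.07 (SE), with a 95% interval of -0.56 to -0.23 and a limma adjusted p of 0.00472. It was called under all 23 alternatives, at -0.46 to -0.36.

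Tlr7, a receptor of single-stranded RNA (ENSMUSG00000044583.13, chrX:167304929-167330558, minus strand), stood at 154, 164 and 170 CPM in KO, against 156, 233 and 228 CPM in WT. WT replicate 1 lay inside the KO range, and the other WT libraries lay above it. The log2 fold change was -0.32 ± 0.15 (SE), with a 95% interval of -0.66 to 0.02 and a limma adjusted p of 0.144. Without WT replicate 1 it was -0.50 and called (adjusted p = 0.000728).

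Tlr9, the receptor of unmethylated CpG DNA (ENSMUSG00000045322.10, chr9:106222598-106226883, plus strand), stood at 9.26, 10.9 and 10.3 CPM in KO, against 12.5, 11.6 and 11.0 CPM in WT. The groups did not overlap but nearly met, and the log2 fold change of -0.19 ± 0.09 was not called (limma adjusted p = 0.157) here or under any of the 23 alternatives. Tlr3, the receptor of double-stranded RNA (ENSMUSG00000031639.12, chr8:45395665-45411080, minus strand), stood at 10.7, 9.52 and 10.4 CPM in KO, against 6.16, 9.67 and 8.92 CPM in WT. The groups overlapped through KO replicate 2 and WT replicate 2, and the log2 fold change was 0.31 ± 0.16 (limma adjusted p = 0.170). Without WT replicate 2 it was 0.43 and called (adjusted p = 0.0493), and without WT replicate 1 it was 0.13 (adjusted p = 0.312). An exact two-sided permutation test over the 6 libraries gave p = 0.1 for Tlr4, Tlr6, Tlr8, Tlr9 and Tlr13, the smallest value that 3 against 3 allows.

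**Figure D3:**
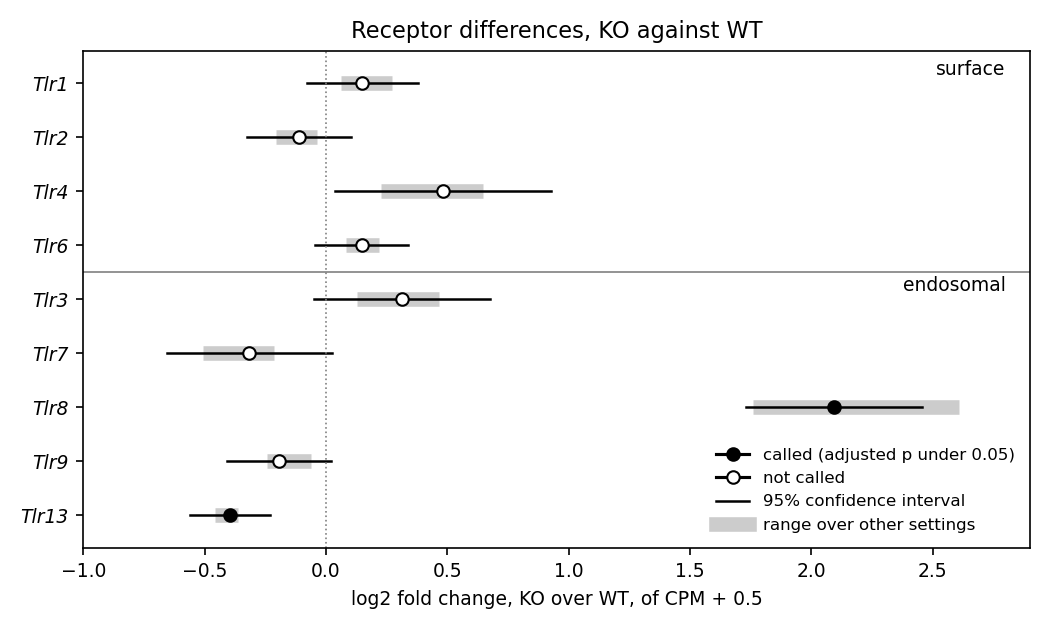
Log2 fold change of CPM + 0.5, KO over WT, for the 9 tested receptors (points) with 95% confidence intervals (lines); grey bands span the values under the alternatives (23, or 22 for Tlr3). Filled points passed an adjusted p under 0.05: Tlr8 at 2.09 and Tlr13 at -0.39; the intervals of Tlr1, Tlr2, Tlr3, Tlr6, Tlr7 and Tlr9 cross 0.

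Levels can be ordered between receptors only per length of transcript. In KO the order in CPM per kilobase of exon was Tlr2 at 66.6 ± 6.34, Tlr7 at 39.8 ± 1.97, Tlr4 at 33.3 ± 1.29 and Tlr13 at 22.6 ± 0.471, then Tlr6 at 5.21 ± 0.196 and Tlr1 at 3.59 ± 0.0504. Tlr9 at 2.93 ± 0.243, Tlr3 at 1.96 ± 0.118, Tlr8 at 1.504 ± 0.148 and Tlr5 at 0.00553 followed, and no neighbours in this order overlapped. In WT the order differed at 2 places. Tlr13 at 29.8 ± 2.25 stood above Tlr4 at 24.5 ± 6.93, and Tlr9 at 3.36 ± 0.210 above Tlr1 at 3.23 ± 0.389, but both of these neighbour pairs overlapped between libraries. In KO, Tlr8 lay just under Tlr3, whereas in WT, Tlr8 at 0.249 ± 0.0740 lay well under Tlr3 at 1.58 ± 0.355.

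The balance within the endosomal class differed for Tlr8. Its share of the endosomal sum per kilobase was 2.19% ± 0.189 in KO and 0.288% ± 0.0483 in WT. The ratio of Tlr7 to Tlr8 was 26.6 ± 2.61 in KO and 206 ± 23.5 in WT, with no overlap, so Tlr7 remained the more abundant transcript in both groups. The whole endosomal sum was 66.2, 70.0 and 70.2 CPM per kilobase in KO and 70.3, 93.6 and 92.3 in WT, groups that touched at WT replicate 1. The surface sum overlapped, at 109 ± 4.96 in KO and 104 ± 11.7 in WT. Within it Tlr4 held 30.7% ± 2.51 in KO and 23.2% ± 4.87 in WT, shares whose closest libraries were nearly equal at 27.9% each.

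Position on the chromosome was examined because 3 members are X-linked. Tlr8 and Tlr7 are 40599 bases apart. Of 316 tested X-linked genes 29 were higher and 50 lower in KO, with a median log2 fold change of -0.03. Within 1000000 bases of Tlr8, 0 of the 7 other tested genes were called; the nearest to a call was Prps2 (0.39, limma adjusted p = 0.0613). Near Tlr13, 1 of 8 was called, Cysltr1, a leukotriene receptor gene, at 5.89 CPM in KO and 11.6 CPM in WT (-0.85, limma adjusted p = 0.0293). The median log2 fold change was -0.18 for the 8 genes near Tlr13 (-0.85 to 0.22) and -0.05 for the 7 near Tlr8 (-0.32 to 0.39). The part of the neighbourhood in the Tlr13 difference was not tested. Chromosomes 3, 4, 5, 8 and 9, which carry the other tested receptors, had medians of -0.06 to 0.00.

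Each of Tlr2 and Tlr7, the most abundant member of its class, was compared with all other tested genes by Pearson correlation of log2(CPM + 0.5) over the 6 libraries. Tlr2 was most like Fancc (0.985), Prdx4 (0.964) and Bag2 (0.947). Tlr7 was most like Zmpste24 (0.995), Snap29 (0.9902) and Cd28 (0.989). These are the highest values over all tested genes, across libraries that also share group and base composition, and they are descriptions only.

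Genes that work with the receptors were followed in 8 lists, of which 74 of 87 genes in the table were tested. Among them 39 were called, 22 higher and 17 lower in KO, that is 52.7% against 30.4% of all tested genes. The lists were chosen with earlier results of these data known, so these shares are descriptions and their difference was not tested. The median log2 fold change of the tested list genes was 0.00. Every list but the adaptors held calls in both directions. Exons of 10 of the 28 list genes named by rule overlap those of another gene, and strand use in counting is not given, so Hsp90b1, Slc15a3, Slc15a4, Ctsl, Myd88, Tirap, Irak1, Ikbke, Nlrc5 and Icam1 are uncertain to that extent.

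Among surface co-receptors 1 rose, 1 fell and 3 of 5 tested were not called. Ly86 encodes MD-1, the partner of the receptor-like protein CD180. It stood at 22.8, 24.1 and 20.6 CPM in KO, against 70.5, 68.3 and 70.7 CPM in WT, a 3.10-fold lower level in KO (log2 fold change -1.61 ± 0.08, limma adjusted p = 4.79e-06). Cd180 itself, whose exons overlap those of Mast4, stood at 127, 133 and 139 CPM in KO, against 113, 124 and 123 CPM in WT. It was not called (limma adjusted p = 0.126). Cd36, a scavenger receptor that assists TLR2 with TLR6, was higher at 33.4 ± 0.647 CPM in KO and 18.1 ± 3.19 CPM in WT (limma adjusted p = 0.00151).

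Chaperones and trafficking genes split, with 3 of 10 higher and 2 lower. Unc93b1, the escort of the endosomal receptors, fell to 203, 227 and 208 CPM in KO, against 294, 256 and 263 CPM in WT (-0.35 ± 0.08, limma adjusted p = 0.0114). That call was lost without KO replicate 1 (adjusted p = 0.0568), as was that of Hsp90b1, which encodes the chaperone gp96 (0.34, adjusted p = 0.0152, and 0.0632 without it); without KO replicate 1 the calls of the list fell to 2. The endolysosomal peptide transporters moved apart: Slc15a3 was higher (48.3 ± 2.48 CPM in KO and 37.5 ± 1.25 CPM in WT) and Slc15a4, which TLR7 and TLR9 signalling needs, was lower (33.6 ± 2.24 CPM in KO and 44.1 ± 1.47 CPM in WT).

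Endosomal proteases, which trim the endosomal receptors, were all called (5 of 5 tested, against 30.4% of all tested genes), 4 higher and 1 lower. Ctsb, whose exons overlap those of Fdft1, was nearest the threshold (0.28, limma adjusted p = 0.0387). With TMM, median-ratio or upper-quartile scaling, no low-value filter, Rn45s left out or a replicate block, 3 were higher. The same count held without KO replicate 1, KO replicate 2, WT replicate 2 or WT replicate 3. Only the call of Ctsb was lost there. Lgmn, encoding asparagine endopeptidase, averaged 1014 ± 56.2 CPM in KO and 511 ± 32.1 CPM in WT (0.99, limma adjusted p = 5.83e-05). Ctss averaged 1689 ± 70.5 CPM in KO and 946 ± 75.7 CPM in WT (0.84), and Ctsl 369.6 ± 10.5 CPM in KO and 259 ± 2.72 CPM in WT (0.51). Ctsk, the cathepsin abundant in osteoclasts, stood at 56.1, 57.0 and 51.8 CPM in KO, against 367, 359.5 and 368 CPM in WT (-2.72, limma adjusted p = 3.44e-07). It was the 1 of 7 osteoclast markers that reached 1 CPM, so the summed osteoclast list of 53.3 to 58.8 CPM in KO and 361 to 370 CPM in WT is nearly all Ctsk. The summed plasmacytoid dendritic cell list was 154 to 168 CPM in KO and 216 to 252 CPM in WT. In it Siglech and Ccr9 were under 1 CPM, and most of the sum was Tcf4 (130 ± 7.83 CPM in KO and 195 ± 18.8 CPM in WT). Bst2 averaged 26.1 CPM in KO and 29.5 CPM in WT, and Runx2 6.48 CPM in KO and 9.51 CPM in WT. The conventional dendritic cell list summed to 2.09 to 2.56 CPM in KO and 4.38 to 5.21 CPM in WT. That sum was carried by 1 of its 5 genes. The part of these marker lists in the receptor results was not tested.

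Of the adaptors Myd88, Tirap and Pik3ap1 rose and Ticam1 was not called (-0.08). Myd88, the common adaptor, averaged 89.2 ± 4.96 CPM in KO and 69.5 ± 6.05 CPM in WT (0.36, limma adjusted p = 0.0123), a call lost without KO replicate 2 (adjusted p = 0.0537). Pik3ap1, which couples TLR signalling to PI3 kinase, averaged 99.9 ± 5.50 CPM in KO and 61.0 ± 1.89 CPM in WT (0.71). Tirap, the bridge to MYD88 at the membrane (0.32, adjusted p = 0.0324), lost its call without KO replicate 1, 2 or 3 or WT replicate 3 (0.0744 to 0.107), and without KO replicate 2 Pik3ap1 was the only adaptor called.

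Among kinases, ubiquitin ligases and interferon regulatory factors 4 of 18 were higher and 4 lower, and the calls fell to 5 without KO replicate 1 or KO replicate 2. Irak1, a kinase next to MYD88, was lower at 112 ± 1.61 CPM in KO and 156 ± 5.17 CPM in WT (-0.47). Traf6, the ligase it acts on, was higher at 115 ± 3.92 CPM in KO and 85.7 ± 5.07 CPM in WT (0.42). Traf6 lies on chromosome 2, where 499 of 856 tested genes were higher in KO and 44 lower, with a median log2 fold change of 0.34; the part of this chromosome-wide shift was not tested. Peli1, a ligase of the IRAK complex (48.2 ± 2.53 CPM in KO and 32.4 ± 2.59 CPM in WT), and Ikbke, a kinase of interferon regulatory factors (34.9 ± 1.25 CPM in KO and 23.0 ± 1.63 CPM in WT), were also higher.

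Negative regulators gave 3 higher and 4 lower of 13. Sigirr, a decoy-like TIR receptor, was lower at 1.00 ± 0.106 CPM in KO and 2.57 ± 0.227 CPM in WT, as was Nlrc5 at 10.8 ± 1.90 CPM in KO and 26.0 ± 4.78 CPM in WT. Il1rl1, encoding the IL-33 receptor ST2, was higher at 64.8 ± 1.66 CPM in KO and 36.04 ± 4.49 CPM in WT. Atf3, a repressor of inflammatory genes, was higher at 82.6 ± 2.00 CPM in KO and 60.7 ± 2.77 CPM in WT.

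Of 17 genes that receptor engagement induces, 10 were tested, 2 were higher and 4 lower. Nfkbiz, an NF-kB cofactor, stood at 7.60, 6.71 and 9.69 CPM in KO, against 21.3, 30.1 and 24.1 CPM in WT (-1.60, limma adjusted p = 0.000285), and the chemokine Ccl3 averaged 135 ± 3.12 CPM in KO and 173 ± 11.2 CPM in WT. Acod1, the itaconate-producing enzyme, averaged 4.76 ± 0.359 CPM in KO and 2.25 ± 0.260 CPM in WT, and the adhesion molecule Icam1 46.8 ± 1.24 CPM in KO and 34.2 ± 1.04 CPM in WT. Tnf was not called (-0.15), and Il12b, Ifnb1 and Cxcl10 were listed at 0 in all libraries.

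Transcription factors known to act at macrophage genes gave 2 higher and 1 lower of 8. Irf8 was lower at 34.4 ± 2.01 CPM in KO and 54.04 ± 2.79 CPM in WT (-0.65, limma adjusted p = 0.000514). Irf2 was higher at 45.4 ± 0.790 CPM in KO and 36.6 ± 0.541 CPM in WT (0.31), and so was Spi1, which encodes PU.1, at 236 ± 12.9 CPM in KO and 181 ± 18.4 CPM in WT (0.39, adjusted p = 0.0114). Spi1 is on chromosome 2, with the shift given above for Traf6, and its call was lost under quantile normalization (adjusted p = 0.0519). Without WT replicate 1 the calls of this list were 3 higher and 3 lower.

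**Figure D4:**
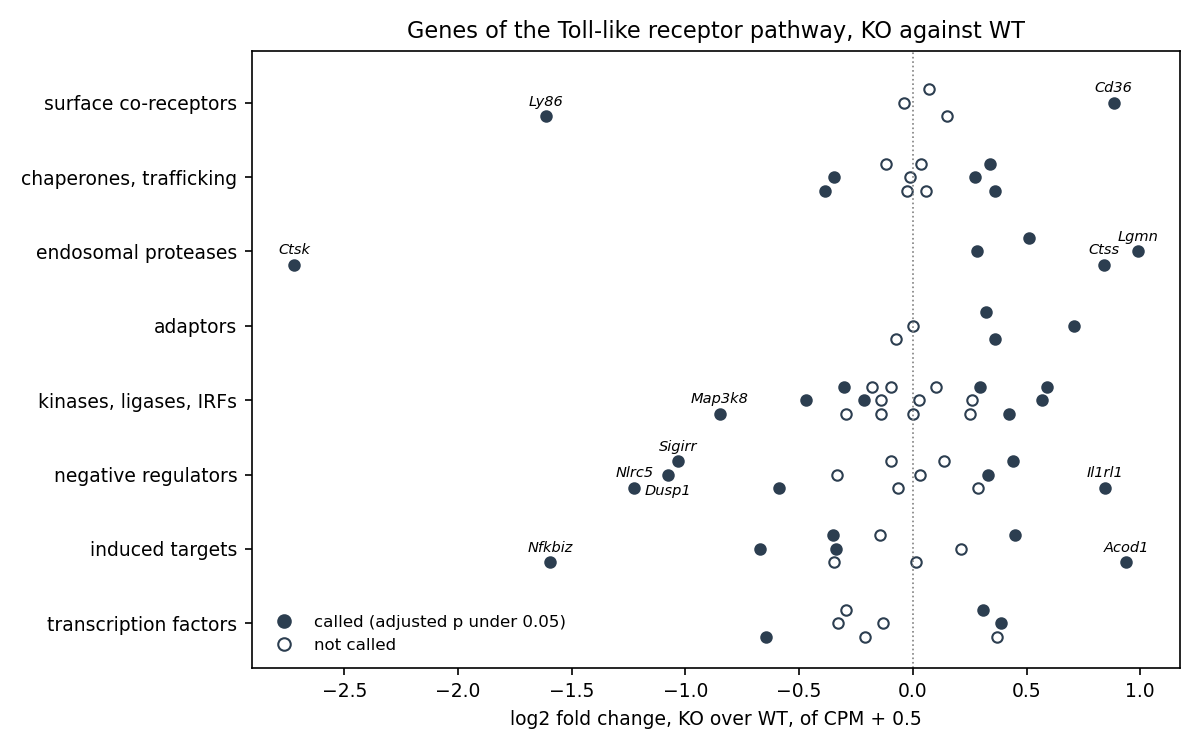
Log2 fold change of CPM + 0.5, KO over WT (horizontal axis), for the 74 tested genes that work with the receptors, by list (rows); filled points were called at an adjusted p under 0.05. Calls lie on both sides of 0 in all lists but the adaptors, with Ctsk at -2.72 and Ly86 at -1.61 lowest and Lgmn highest at 0.99.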

How the data were processed

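The authors deposited a table of CPM, reads per gene scaled by each library's assigned total, from 125-nucleotide paired-end reads of KAPA mRNA HyperPrep libraries, per the labels' protocols. STAR 2.6.0a, SAMtools, Picard, FastQC and Trim Galore were used, on mm10, per the submitters' processing notes, and the column names say that duplicates were removed, per the file headers. Removing duplicates can lower the values of abundant genes most. Which program counted reads, and whether by strand, is not given in these sources.

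The deposited CPM were whole multiples of 1 read in 100% of values (tolerance 0.01 reads), so whole reads were recovered for edgeR 4.0.16, which called 3359 genes, and DESeq2 1.42.0, which called 3758. The main test was limma 3.58.1 in R 4.3.3 on log2(CPM + 0.5), with an eBayes trend and no covariates, in all 6 libraries. It was tested on simulated counts in which no library had a base composition shift. That simulation therefore does not cover the shift of WT replicate 1. Exact permutation tests used scipy 1.17.1 in Python 3.11.15. Coordinates, exon lengths and base composition came from GENCODE M21 (mm10), which matched 24313 of 24848 symbols; promoters came from RefSeq. Protein sequences were not used here, so protein identity was not computed.

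The 10 members and all gene lists were chosen with earlier results of these data known. Named by rule were all members, Apobec1, up to 4 called genes per list by adjusted p, and the 3 genes most like Tlr2 and Tlr7. Genes named outside the rule, such as Cd14, Ly96, Cd180, Ctsb, Ticam1, Tnf, Cysltr1 and Prps2, were chosen after their values were seen. Tasl was not matched by that name. P-values measure the spread between plates. The limit of 3 reads covers only the error of counting, because no molecular identifiers are recorded.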

Additional observations from a re-analysis of the deposited data

How the results depend on the processing

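Tlr8 and Tlr13 were called, with their directions kept, under all 23 alternatives (limma adjusted p at most 0.000935 and 0.0271), and no tested receptor changed direction. The count of called genes, 3230, became 2009 with a replicate block, 4937 with the length and G or C trend removed, 2082 without overlapping genes and 1973 to 3761 when single libraries were left out. The surface calls, 0, became 1 under quantile normalization (Tlr1), 1 under DESeq2 (Tlr4), 3 with the trend removed and 0 to 1 with single libraries left out (1 without WT replicate 1 and 1 without WT replicate 2, Tlr4 both times). The endosomal calls, 2, became 4 with the trend removed. Quantile normalization also called Tlr3 (0.47, adjusted p = 0.0353). The pathway calls, 39, became 23 without overlapping genes, where fewer genes were tested. Of called genes 44.5% were higher in KO, against 34.1% under upper-quartile scaling and 57.7% with the trend removed. Deviations from the group means correlated at -0.25, -0.64 and -0.17 between same-numbered KO and WT libraries. Between differently numbered libraries they ran from -0.44 (KO replicate 3, WT replicate 1) to 0.61 (KO replicate 3, WT replicate 2). These correlations cannot decide whether the numbers pair the samples, because deviations from a mean of 3 libraries are tied to each other. The replicate block changed no call of a receptor, and gave 29 pathway calls. Of the genes named by rule, Irf2, Hsp90b1 and Tirap were no longer called under it (limma adjusted p = 0.0636, 0.0608 and 0.0852). With 3 libraries a group the 95% interval of Tlr4 spans 0.04 to 0.93, and Tlr5, at 1 to 4 reads, lies at the depth limit of 3 reads.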
